A study of Mus musculus with 30 samples.

Results

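The genes described are 10 mouse genes of salivary and lacrimal gland secretion: Mucl1, Mucl2, Smr2, Smr3a, Obp2a, Dcpp1, Dcpp2, Dcpp3, Bpifa2 and Sbpl. They were chosen by name, with earlier results of these data known. All 10 were found among the 55011 gene symbols of the mTEChi counts and the 35999 symbols of the B6 Aire-GFP+ counts. RNA was sequenced from medullary thymic epithelial cells (mTECs) of female C57BL/6J mice aged 4 to 6 weeks, 1000 sorted cells per library. Of the 30 samples of the series, 21 libraries were analysed, and the 9 libraries of NOD or NOD-cross mice were not used here. Aire-GFP+ mTECs, sorted by a fluorescent marker of Aire, came from 2 Aire-KO and 3 WT libraries without treatment. mTEChi, the mTECs with high MHC class II, formed 8 groups of 2 libraries. These were Aire-KO and WT mice injected intraperitoneally with spermidine, Aire-KO and WT mice injected with PBS, WT mice injected with topotecan, WT mice injected with DMSO, untreated mice with Foxn1-cre and Nfe2l2 fl/fl, and untreated mice with Foxn1-cre and Nfe2l2+/+. Both Nfe2l2 groups thus carried Foxn1-cre, which is driven by a transcription factor gene of thymic epithelium and is not limited to the medulla. The labels give no dose, schedule or number of mice behind a library.

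Salivary and lacrimal glands pour a small number of proteins into saliva and tears in very large amounts, and outside glands these proteins are scarce. mTECs transcribe a large set of such tissue-restricted genes at low level, many of them under the control of the protein Aire, so that developing T cells that recognise the products can be removed or turned into regulatory T cells. Mice that lack Aire are known to develop autoimmune attack on several organs, the salivary and lacrimal glands among them. Topotecan inhibits topoisomerase 1, spermidine is a natural polyamine, and Nfe2l2 encodes the stress-response transcription factor NRF2.

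The 10 genes lie in 5 places of the genome (GRCm38, GENCODE M21). Dcpp1, Dcpp2, Dcpp3 and Sbpl share 74.4 kb of chromosome 17, Smr3a and Smr2 share 106.5 kb of chromosome 5, Mucl1 and Mucl2 share 147.4 kb of chromosome 15, and Obp2a and Bpifa2 stand apart on chromosome 2. The promoter windows of the chromosome 17 genes and of Obp2a are printed because 4 of these genes are neighbours with near-identical copies among them and because the 5 had the highest levels per length in WT Aire-GFP+ cells. Each window runs 5′ to 3′ from 250 bases before to 50 bases after the start of the gene in RefSeq (GRCm38.p6), and capitals mark the letters TATAAA.
Dcpp1, chr17:23880626-23880925, plus strand: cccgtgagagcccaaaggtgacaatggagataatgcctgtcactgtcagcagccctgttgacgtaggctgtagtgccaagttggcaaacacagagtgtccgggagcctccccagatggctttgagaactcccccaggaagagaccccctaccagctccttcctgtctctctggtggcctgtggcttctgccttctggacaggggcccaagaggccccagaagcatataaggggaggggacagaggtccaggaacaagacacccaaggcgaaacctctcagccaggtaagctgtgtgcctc
Dcpp2, chr17:23898472-23898771, plus strand: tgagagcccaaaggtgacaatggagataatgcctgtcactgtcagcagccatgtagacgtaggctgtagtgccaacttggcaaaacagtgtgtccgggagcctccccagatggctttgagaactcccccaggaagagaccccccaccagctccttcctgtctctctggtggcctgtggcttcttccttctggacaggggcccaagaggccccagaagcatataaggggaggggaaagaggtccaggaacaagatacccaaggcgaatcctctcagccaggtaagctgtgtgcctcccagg
Dcpp3, chr17:23917208-23917507, plus strand: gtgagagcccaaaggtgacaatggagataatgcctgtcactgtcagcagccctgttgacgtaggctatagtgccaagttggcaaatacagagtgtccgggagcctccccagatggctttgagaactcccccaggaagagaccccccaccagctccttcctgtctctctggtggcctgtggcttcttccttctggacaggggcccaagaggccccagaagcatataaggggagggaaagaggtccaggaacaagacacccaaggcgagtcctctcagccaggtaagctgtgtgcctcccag
Sbpl, chr17:23955224-23955523, minus strand: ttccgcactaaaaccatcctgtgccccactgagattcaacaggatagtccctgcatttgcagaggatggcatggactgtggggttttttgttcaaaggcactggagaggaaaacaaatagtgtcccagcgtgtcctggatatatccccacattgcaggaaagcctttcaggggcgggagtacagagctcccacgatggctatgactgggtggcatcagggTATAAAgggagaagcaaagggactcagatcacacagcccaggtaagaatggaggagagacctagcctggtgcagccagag
Obp2a, chr2:25699824-25700123, plus strand: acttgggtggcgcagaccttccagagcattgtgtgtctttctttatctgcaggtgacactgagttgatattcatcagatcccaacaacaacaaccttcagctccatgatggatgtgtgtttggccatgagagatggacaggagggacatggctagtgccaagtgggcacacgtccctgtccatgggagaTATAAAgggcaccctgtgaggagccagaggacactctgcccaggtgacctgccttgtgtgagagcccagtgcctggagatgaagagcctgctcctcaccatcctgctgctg
The Dcpp windows were near copies of each other, with 96.9% identical bases between Dcpp1 and Dcpp2, 97.6% between Dcpp1 and Dcpp3 and 97.7% between Dcpp2 and Dcpp3. Their most abundant transcripts were 94.2 to 96.1% identical. The windows of Smr2 and Smr3a, not printed, were 90.5% identical. The search for TATAAA, on both strands, found it in 2 of the 9 members with a window, beside 13.6% of all 32851 windows. It lay at position -61 in Obp2a and -30 in Sbpl, counted from the RefSeq start. The GENCODE start of Obp2a, at base 25700043, lies upstream of the RefSeq start, so this position depends on the annotation. TGANNNNGC, the core of the NRF2-type element, was in the windows of Bpifa2, Smr3a and Smr2, 3 of 9 members, beside 41.3% of all windows. The AP-1 letters TGANTCA were in those of Smr2 and Smr3a, 2 of 9, beside 7.81%, and neither match overlaps the TGANNNNGC match of the same window. A run of 5 or more CA units was in 0 of 9 windows, beside 1.61% of all, and a run of 3 or more CG units in 0 of 9, beside 11.3%. Both repeats are known to be able to take the Z form of DNA, and these counts describe only letters within 300 bases.

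The likeness between copies limits what a single gene's count means. Of the 31-base stretches of the main transcript, 43.6% occurred in no other gene for Dcpp1, 54.2% for Dcpp2 and 51.2% for Dcpp3, the rest being shared among the 3 genes. The share was 51.8% for Sbpl, whose remaining stretches occur in its neighbour Sbp, 52.6% for Smr3a and 86% for Obp2a, which shares stretches with Obp2b. Mucl1, Mucl2, Smr2 and Bpifa2 had 94.3 to 98.4% unique stretches. Dcpp1 and Dcpp2 as annotated also overlap in 30 exonic bases. Values of the single Dcpp genes, and of Sbpl against Sbp, are therefore uncertain, and the 3 Dcpp genes were also tested as a sum.

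Library totals were 6577405 to 12613034 estimated counts in Aire-GFP+ cells and 2027205 to 5724045 counts in mTEChi. Levels are CPM (counts scaled to library size, with TMM factors), and tests are edgeR quasi-likelihood tests on all genes that passed a filter on low counts, with Benjamini-Hochberg adjustment and a threshold of 0.05. Nothing in the sources used here says that replicates came from separate mice, so p-values measure the spread between these libraries, which may be technical. The Aire transcript does not check the knockout labels: it had 1508 and 1774 CPM in Aire-KO Aire-GFP+ libraries, against 1603 to 1686 CPM in WT, and 4096 to 5075 CPM in the 4 Aire-KO mTEChi libraries, against 1621 to 1814 CPM in their 4 WT counterparts. Which part of the gene the knockout allele lacks is not stated in the labels, and gene counts do not resolve it. Nfe2l2 counts do not check the flox label either, with 105 and 86.6 CPM in Nfe2l2 fl/fl and 90.7 and 91.4 CPM in Nfe2l2+/+ libraries. All 12 mTEC markers examined, such as Epcam and Fezf2, were present in every group.

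In Aire-sufficient cells the 10 genes spanned a wide range of levels, led by Sbpl. Per length of transcript, Sbpl, which encodes a protein like the spermine-binding protein of prostate, averaged 151 ± 10.4 TPM in WT Aire-GFP+ cells (SD, n = 3). It was followed by Dcpp1 at 85.5 ± 38.6, Obp2a at 59.6 ± 9.84, Dcpp3 at 50.3 ± 12.8 and Dcpp2 at 42.1 ± 18.4 TPM. Mucl1 at 24 ± 5.37, Mucl2 at 19.5 ± 9.41 and Bpifa2 at 12.7 ± 10.4 TPM came next, and Smr3a at 2.98 ± 2.05 and Smr2 at 0.67 ± 0.582 TPM were lowest. Only Sbpl and Dcpp1, and Smr3a and Smr2, were neighbours in this order whose ranges over the 3 libraries did not overlap. Over the 12 Aire-sufficient mTEChi libraries Sbpl was again first, at 59.3 ± 32.9 RPKM, reads scaled to exonic length and library size, with a range of 18.8 to 119 RPKM (n = 12). Obp2a, Mucl1, Dcpp1, Mucl2 and Dcpp3 followed at means of 24, 21.4, 20.8, 19 and 18.7 RPKM, then Dcpp2 at 7.96, Bpifa2 at 2.58, Smr3a at 1.69 and Smr2 at 0.421 RPKM, and the range of every gene overlapped that of the next. Sbpl had more CPM than any other member in each of these 12 libraries except WT spermidine replicate 1, led by Mucl2, and WT DMSO replicate 2, led by Obp2a. Together the 10 genes made up 0.00871 to 0.0272% of all counts in the Aire-sufficient libraries of both kinds.

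Loss of Aire was studied first in Aire-GFP+ cells, where the summed level of the 10 genes was 0.902 ± 0.0707 CPM in Aire-KO (SD, n = 2), against 213 ± 30.5 CPM in WT (n = 3). Of the 8 members that passed the filter, 8 fell and 0 rose. They passed through their WT libraries, since no Aire-KO value exceeded 0.476 CPM. The filter thus favoured members that fall, in this count and in the median below. In this comparison 41.3% of the 17923 genes tested were called, 22.3% lower and 19% higher. The median log2 fold change of these 8 was -7.81, and that of all genes tested was -0.12. Each of 9 members, all but Smr2, was lower in both Aire-KO libraries than in any WT library. These include all 8 members tested, and 34.6% of all genes tested lay lower without overlap in the same way. In sorted pools, fewer cells of a type and less RNA per cell cannot be told apart.

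**Figure D1:**
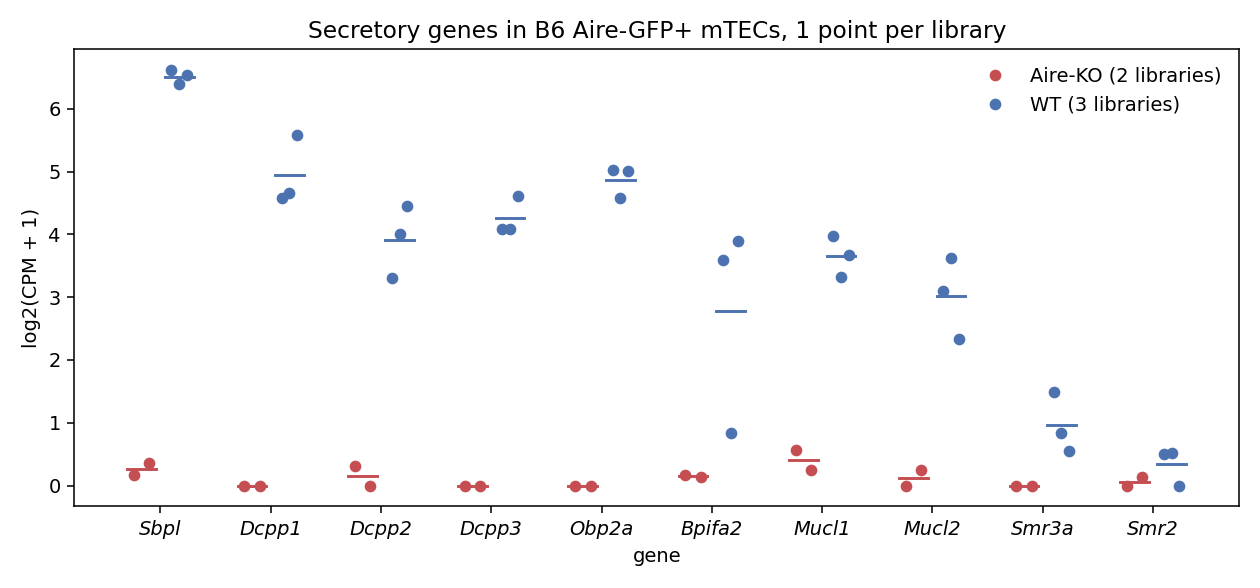
Level of each gene, log2(CPM + 1), in 2 Aire-KO (left, red) and 3 WT (right, blue) Aire-GFP+ libraries; points are libraries and bars are group means. All Aire-KO points lie below 0.5 CPM, and those of Obp2a, Dcpp1, Dcpp3 and Smr3a at 0, while WT Sbpl lies between 82.9 and 96.8 CPM.

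The demilune cell and parotid proteins encoded by Dcpp1, Dcpp2 and Dcpp3 are secreted by salivary glands. Dcpp1 had 0 counts in both Aire-KO Aire-GFP+ libraries and 22.8, 24.3 and 46.7 CPM in WT, which is at least 198-fold lower when 3 counts over the group are taken as the floor (log2 fold change -11.24, SE 0.904, edgeR adjusted p = 1.87e-04). Dcpp3 likewise had 0 counts in Aire-KO, against 15.9, 15.9 and 23.3 CPM in WT, at least 116-fold lower (adjusted p = 1.16e-04 by edgeR). Dcpp2 had 0.238 and 0 CPM in Aire-KO, against 8.85, 15 and 20.9 CPM in WT (log2 fold change -6.97, SE 0.809, edgeR adjusted p = 4.75e-04). The fitted fold changes of genes without a count in one group depend on the prior count of the tool and are not bounds. With the 3 genes summed, which sets aside which of the copies a read was given to, the log2 fold change was -9.09 (edgeR adjusted p = 5.97e-05).

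Sbpl, next to them on chromosome 17, had 0.119 and 0.284 CPM in Aire-KO, against 96.8, 82.9 and 91.6 CPM in WT (log2 fold change -8.66, SE 0.293, edgeR adjusted p = 1.71e-05). Its WT libraries lay close together, and its SE was the smallest of the 8 members tested here. Obp2a, an odorant-binding protein of the lipocalin family, which carries small hydrophobic molecules, had 0 counts in Aire-KO and 31.5, 23 and 31.1 CPM in WT, at least 180-fold lower (edgeR adjusted p = 5.23e-05).

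The mucin-like genes kept a few counts. Mucl1 had 0.476 and 0.189 CPM in Aire-KO, against 14.7, 8.99 and 11.8 CPM in WT (log2 fold change -5.14, SE 0.551, edgeR adjusted p = 3.30e-04). Mucl2 had 0 and 0.189 CPM in Aire-KO, against 7.6, 11.3 and 4.06 CPM in WT (log2 fold change -6.04, SE 0.924, edgeR adjusted p = 0.00162). Bpifa2, the parotid secretory protein, was the least even of the 8 members tested in WT, with 11.1, 0.793 and 13.8 CPM, against 0.119 and 0.0946 CPM in Aire-KO. Its fall had a log2 fold change of -6.17 (SE 1.43, edgeR adjusted p = 0.0103). Of the 5 fits that left out 1 library, Bpifa2 passed the filter in only 3, with log2 fold changes of -6.72 to -6.00. The call was lost without Aire-KO replicate 1 (-6.30) and without Aire-KO replicate 2 (-6.00).

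Smr2 and Smr3a, genes of androgen-regulated proteins of the submandibular (submaxillary) gland, were too low to pass the filter. Smr3a had 0 counts in Aire-KO Aire-GFP+ libraries and 1.8, 0.793 and 0.472 CPM in WT, at least 6.46-fold lower at the floor. Fitted without the filter it was called lower (edgeR adjusted p = 0.0139), and in the 2 fits with 1 library left out in which it passed the filter it was not (edgeR adjusted p = 0.1 and 0.12). Smr2 had 0 and 0.0946 CPM in Aire-KO, against 0.415, 0.441 and 0 CPM in WT, and the groups overlapped. Without the filter the edgeR adjusted p of Smr2 was 0.522, and no difference was detectable at this depth.

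The same question was asked in mTEChi, within each injection. With PBS the summed level was 2.68 ± 0.113 CPM in Aire-KO and 118 ± 32.1 CPM in WT, and with spermidine it was 2.52 ± 0.827 CPM in Aire-KO and 110 ± 34.6 CPM in WT (SD, n = 2 each). With PBS, 6 of the 9 members tested fell and 0 rose, where 5.08% of 18418 genes were called lower and 5.21% higher: Mucl1, Mucl2, Obp2a, Dcpp1, Dcpp3 and Sbpl. With spermidine 6 of 9 fell, where 9.11% of genes were called in either direction and 4.34% lower, and these were Mucl1, Mucl2, Obp2a, Dcpp1, Dcpp2 and Sbpl. In the mean over both injections, with 4 libraries a side, 8 of 9 fell and 0 rose, where 22.8% of genes were called in either direction and 12.5% lower, and Smr3a was the member tested that was not called. The median log2 fold changes of the 9 members were -6.52 with PBS, -5.46 with spermidine and -5.99 in the mean. Those of all genes tested were -0.05, -0.04 and -0.05. Here too the members passed the filter through Aire-sufficient libraries, which favours falls in these counts and medians. Limma-voom called 1 of these members with PBS, 0 with spermidine and 6 over both, while DESeq2 called 6, 7 and 8.

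**Figure D2:**
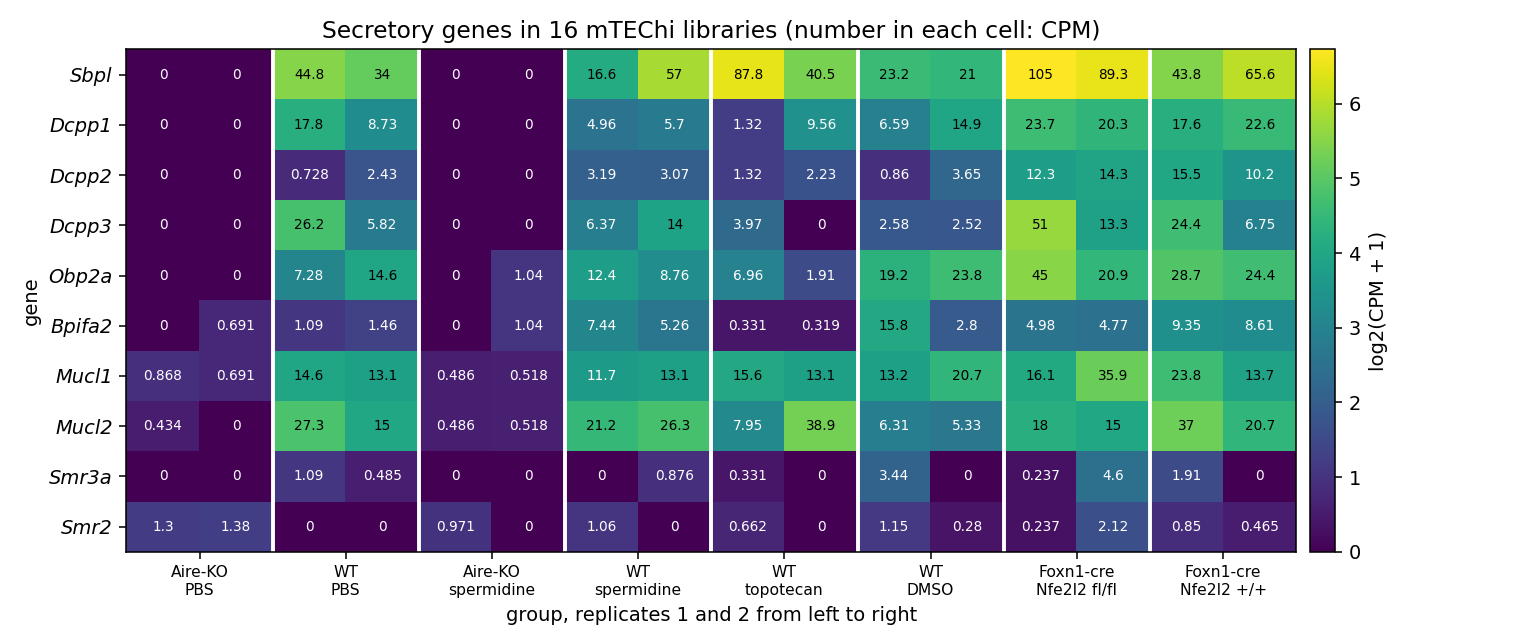
CPM of each gene (numbers in cells) in the 16 mTEChi libraries, with colour for log2(CPM + 1) and pairs of columns for the replicates of a group. The Aire-KO columns hold 0 for Sbpl, Dcpp1, Dcpp2, Dcpp3 and Smr3a, and Dcpp2 stands at 10.2 to 15.5 CPM in the 4 Foxn1-cre columns.

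On chromosome 17, Dcpp1, Dcpp2, Dcpp3 and Sbpl had 0 counts in all 4 Aire-KO mTEChi libraries. Sbpl had 44.8 and 34 CPM in WT with PBS and 16.6 and 57 CPM in WT with spermidine. Over both injections it was at least 117-fold lower in Aire-KO (edgeR adjusted p = 1.83e-05). The Dcpp genes were more scattered. Dcpp1 had 17.8 and 8.73 CPM in WT with PBS and 4.96 and 5.7 CPM in WT with spermidine, and over both was at least 28.5-fold lower in Aire-KO (edgeR adjusted p = 4.17e-04).

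Dcpp3 had 26.2 and 5.82 CPM in WT with PBS and 6.37 and 14 CPM in WT with spermidine, and over both was at least 40.2-fold lower in Aire-KO (edgeR adjusted p = 0.00259). Within single injections its edgeR adjusted p was 0.0222 with PBS and 0.0573 with spermidine. The PBS call was lost without WT replicate 1 (adjusted p = 0.123), without Aire-KO replicate 1 (0.128) and without Aire-KO replicate 2 (0.131), by edgeR. Dcpp2, the lowest of the group, had 0.728 and 2.43 CPM in WT with PBS and 3.19 and 3.07 CPM in WT with spermidine, and over both was at least 7.2-fold lower in Aire-KO (edgeR adjusted p = 0.00341). Its edgeR adjusted p was 0.0603 with PBS and 0.0291 with spermidine, where leaving out WT replicate 1, WT replicate 2, Aire-KO replicate 1 or Aire-KO replicate 2 gave 0.0904, 0.076, 0.159 and 0.154. For Dcpp1 the edgeR adjusted p with spermidine was 0.0263, and the same 4 omissions gave 0.0736, 0.0774, 0.152 and 0.147. With the 3 Dcpp genes summed, the fall passed the test with PBS (edgeR adjusted p = 5.75e-04), with spermidine (0.00271) and over both (3.23e-05).

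Both mucin-like genes kept a few counts in Aire-KO mTEChi. Mucl1 had 0.868 and 0.691 CPM in Aire-KO with PBS, against 14.6 and 13.1 CPM in WT with PBS, and 0.486 and 0.518 CPM in Aire-KO with spermidine, against 11.7 and 13.1 CPM in WT with spermidine. Its log2 fold change over both was -4.31 (SE 0.458, edgeR adjusted p = 1.69e-05), and its 4 WT libraries were the most even of all members. Mucl2 had 0.434 and 0 CPM in Aire-KO with PBS, against 27.3 and 15 CPM in WT, and 0.486 and 0.518 CPM in Aire-KO with spermidine, against 21.2 and 26.3 CPM in WT (log2 fold change over both -5.99, SE 0.688, edgeR adjusted p = 3.32e-05).

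Obp2a had 0 counts in both Aire-KO PBS libraries, against 7.28 and 14.6 CPM in WT. With spermidine it had 0 and 1.04 CPM in Aire-KO, against 12.4 and 8.76 CPM in WT (log2 fold change over both -6.21, SE 0.839, edgeR adjusted p = 1.77e-04). With spermidine alone its edgeR adjusted p was 0.0128, and 0.0655 without WT replicate 1 or 0.127 without Aire-KO replicate 1. Bpifa2 had 0 and 0.691 CPM in Aire-KO with PBS, against 1.09 and 1.46 CPM in WT, and 0 and 1.04 CPM in Aire-KO with spermidine, against 7.44 and 5.26 CPM in WT. It was called over both injections (log2 fold change -2.60, SE 0.855, edgeR adjusted p = 0.041) and in neither alone. That call was lost in 6 of the 8 fits that left out 1 library. The edgeR adjusted p was then 0.0812 without WT PBS replicate 1 and 0.101 without WT PBS replicate 2, and 0.0953 without WT spermidine replicate 1 and 0.0593 without WT spermidine replicate 2. It was 0.116 without Aire-KO PBS replicate 1 and 0.121 without Aire-KO spermidine replicate 1.

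The Smr genes did not share a pattern. Smr3a had 0 counts in all 4 Aire-KO libraries, against 1.09 and 0.485 CPM in WT with PBS and 0 and 0.876 CPM in WT with spermidine, and did not pass (edgeR adjusted p = 0.299 over both). Smr2 had 3 and 4 counts in Aire-KO with PBS and 2 and 0 counts in Aire-KO with spermidine, against 0 and 0 counts in WT with PBS and 3 and 0 counts in WT with spermidine. It was the highest member, at 0.971 to 1.38 CPM, in 3 of the 4 Aire-KO libraries, where no other member exceeded 0.868 CPM. It failed the filter, and without the filter its edgeR adjusted p was 0.287 with PBS, 1 with spermidine and 0.468 over both, so that a difference was not detectable at this depth.

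Marker genes of mTECs and of other cells were summed in each library. The 12 mTEC markers summed to 67036 and 70634 CPM in Aire-KO Aire-GFP+ libraries, against 30246 to 30613 CPM in WT. In mTEChi they summed to 41691 to 42858 CPM in Aire-KO, against 23423 to 24627 CPM in WT. Most of each sum came from the MHC class II genes H2-Ab1 and H2-Aa. In Aire-GFP+ cells 7 of 12 were called higher and 1, Krt5, lower, and the others were not called. The 8 thymocyte markers summed to 23.3 and 43.2 CPM in Aire-KO Aire-GFP+ libraries, against 51.9 to 71.8 CPM in WT, and to 64.2 to 140 CPM in Aire-KO mTEChi, against 57.2 to 117 CPM in WT; 1 of 8 was called lower in Aire-GFP+ cells and 0 by edgeR in mTEChi over both injections (0 at an unadjusted p below 0.05), where the sums overlapped. With spermidine alone the thymocyte sums were 134 and 140 CPM in Aire-KO, against 81.9 and 117 CPM in WT, and did not overlap. There edgeR called 0 of 8, and 2 had an unadjusted p below 0.05. With PBS they were 64.2 and 71.2 CPM in Aire-KO. For spermidine against PBS in Aire-KO edgeR called 0 of 8, and 4 had an unadjusted p below 0.05. Of the 6 fibroblast markers 2 were called lower and 2 higher in Aire-GFP+ cells, with sums of 252 and 329 CPM in Aire-KO, against 71.1 to 113 CPM in WT. In mTEChi over both injections 2 of the 6 were called lower, with sums of 151 to 194 CPM in Aire-KO, against 123 to 304 CPM in WT. In Aire-GFP+ cells the 5 cTEC markers summed to 2349 and 2356 CPM in Aire-KO, against 659 to 763 CPM in WT, with most of the sum from the chemokine gene Ccl25. Ccl25 and Ly75 were called higher, and Psmb11 and Dll4 lower. The 5 myeloid markers summed to 2187 and 2207 CPM in Aire-KO, against 961 to 1396 CPM in WT, with most from Lyz2. Lyz2 and Cd68 were called higher, and Csf1r and Flt3 lower. The 3 B cell markers summed to 8.92 and 10.5 CPM in Aire-KO, against 18 to 29.7 CPM in WT, with 1 called lower. The 6 gland acinar markers summed to 355 and 403 CPM in Aire-KO Aire-GFP+ libraries, against 414 to 504 CPM in WT, and to 318 to 458 CPM in Aire-KO mTEChi, against 320 to 381 CPM in WT. Most of that sum was Lpo. Of these markers, 1 of the 4 tested in Aire-GFP+ cells and 1 of the 6 tested in mTEChi over both injections were called lower, and 0 higher. Of all genes tested, 22.3 and 12.5% were called lower, so these counts are near the background. Prol1, a proline-rich protein of lacrimal glands, was at 0 in Aire-KO cells of both kinds. It was called lower in Aire-GFP+ cells (edgeR adjusted p = 0.0108). Car6, the secreted carbonic anhydrase of saliva, was called lower in mTEChi over both injections (edgeR adjusted p = 0.0294). Other acinar markers did not all lean lower. With PBS the median log2 fold change of the 6 was -1.05, while Aqp5 had 5.93 and Bhlha15 0.22. There edgeR called 0 of the 6, and 2 had an unadjusted p below 0.05. Of those 6 markers 4 also belong to the list of further gland genes described next. The part of these cells in the fall of the 10 genes was not tested.

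Other secretory genes of the same glands were read next. Of 65 further salivary and lacrimal genes, 41 passed the filter in each table, and 28 were called lower and 1 higher in Aire-GFP+ cells. In mTEChi 13 were lower and 1 higher with PBS, 19 lower and 1 higher with spermidine, and 29 lower and 1 higher over both. Of all genes tested, 22.3% were lower in Aire-GFP+ cells, 5.08% with PBS, 4.34% with spermidine and 12.5% over both. The median log2 fold change of the 41 was -4.15 in Aire-GFP+ cells and -3.31 over both injections in mTEChi. Of the 58 listed genes found in the Aire-GFP+ counts, 21 had no count in Aire-KO and 3 none in WT. In mTEChi over both injections these were 20 and 6 of 59. Genes seen mainly in WT pass the filter through WT, which favours falls in these counts and medians. The 1 higher gene was in each of these comparisons Fcgbp, a mucus protein that binds the Fc part of IgG, with 4241 ± 164 CPM in Aire-KO and 2340 ± 200 CPM in WT Aire-GFP+ cells (log2 fold change 0.86, SE 0.0921, edgeR adjusted p = 3.33e-04, n = 2 and 3).

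Among those lower in Aire-GFP+ cells, the cystatin Cst10 had 0.0595 ± 0.0841 CPM in Aire-KO and 12 ± 1.93 CPM in WT, and the kallikrein Klk1b8 2.16 ± 1.32 CPM in Aire-KO and 42 ± 10.2 CPM in WT (SD, n = 2 and 3). The scavenger receptor gene Dmbt1 had 0.652 ± 0.417 CPM in Aire-KO and 15.1 ± 0.754 CPM in WT, and the lipocalin Lcn11 0 counts in Aire-KO and 18.4 ± 2.57 CPM in WT. In mTEChi over both injections the lipocalin Lcn3 had 0 counts in 4 Aire-KO libraries and 6.66 ± 2.22 CPM in WT. Wfdc18, a whey acidic protein family member, fell by 1.08 on the log2 scale, with 217 ± 9.28 CPM in Aire-KO and 459 ± 56.5 CPM in WT (SE 0.14, edgeR adjusted p = 9.48e-05, n = 4 each).

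Regulators and ion and water channels of glands were examined next. Of 24 such genes, 18 were tested in Aire-GFP+ cells, where 5 were lower and 1 higher, and 19 in mTEChi, where edgeR called 0 with PBS (4 at an unadjusted p below 0.05), 2 lower with spermidine and 3 lower over both. The shares of all genes called lower were 22.3% in Aire-GFP+ cells, 5.08% with PBS, 4.34% with spermidine and 12.5% over both, so that the counts of this list in Aire-GFP+ cells and over both injections are near the background. Sox10, a transcription factor of salivary and lacrimal gland development, had 0.0473 ± 0.0669 CPM in Aire-KO and 3.36 ± 0.444 CPM in WT Aire-GFP+ cells (edgeR adjusted p = 0.00281). Spdef, a transcription factor of mucus-secreting cells, had 0.827 ± 0.57 CPM in Aire-KO and 6.53 ± 4.06 CPM in WT mTEChi (edgeR adjusted p = 0.0109), and Pigr, the receptor that carries IgA into secretions, 68.2 ± 29.7 CPM in Aire-KO and 257 ± 112 CPM in WT (edgeR adjusted p = 4.88e-04, n = 4 each).

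The neighbours of the members were then read, as the protein-coding genes within 200 kb. Of 66 such genes 55 were tested in each table; in Aire-GFP+ cells 29 were lower and 7 higher, beside 22.3 and 19% of all genes; over both injections in mTEChi 20 were lower and 2 higher, beside 12.5 and 10.3%. Of the 66, 19 had no count in Aire-KO Aire-GFP+ libraries and 2 none in WT, and in mTEChi over both injections 14 and 2. The filter can therefore favour falls here too. Around Obp2a, 12 of 22 tested genes were lower and 4 higher in Aire-GFP+ cells. The lower ones within 100 kb included the lipocalins Lcn8, Lcn6, Lcn10, Lcn3 and Lcn11, the paralog Obp2b and the ficolin Fcna. Around Bpifa2, 8 of 10 were lower and 1 higher, and those lower were Sun5 and the BPI-fold genes Bpifb1, Bpifb2, Bpifb3, Bpifb4, Bpifb6, Bpifa5 and Bpifa6.

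Around Dcpp1 to Sbpl, 8 of 20 were lower and 2 higher in Aire-GFP+ cells. Among the lower were Sbp and the serine protease genes Prss32, Prss21, Prss30 and Prss27. In mTEChi over both injections 4 of 19 were lower and 1 higher. Sbp and Prss32 were called lower there too, while Prss30 and Prss27 were not (edgeR adjusted p = 0.0588 and 0.877) and Prss21 was not tested. Sbp, the spermine-binding protein, had 0 counts in Aire-KO mTEChi and 9.06 ± 5.59 CPM in WT over both injections, at least 27.7-fold lower (edgeR adjusted p = 1.45e-04, n = 4 each), and shares sequence with Sbpl. Around the Smr genes the enamel-associated gene Odam was lower in Aire-GFP+ cells, 1 of 3 tested genes there. Beside Mucl1 and Mucl2 the single other gene, Glycam1, was not tested in Aire-GFP+ cells. In mTEChi over both injections Glycam1 was tested and not called (log2 fold change -3.91, edgeR adjusted p = 0.0833). These neighbours were named after their values were seen, and some of them belong to the further gland list.

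**Figure D3:**
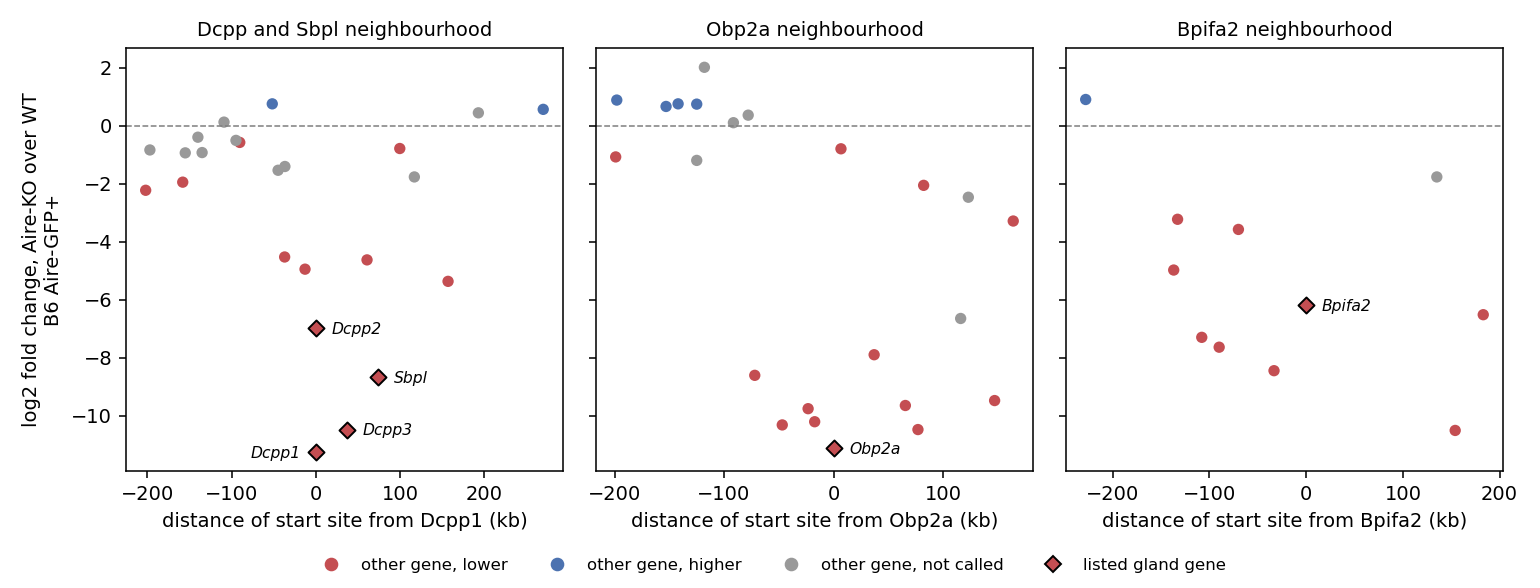
Log2 fold change of Aire-KO over WT in Aire-GFP+ cells against distance of the annotated start site, for tested protein-coding genes around Dcpp1 to Sbpl (left), Obp2a (middle) and Bpifa2 (right). Members of the 10 genes are diamonds, other genes are circles, red is lower, blue higher and grey not called at an edgeR adjusted p of 0.05; the annotated span of Dcpp2 begins beside Dcpp1, and values of genes without a count in Aire-KO depend on the prior count. Called lower are 8 of 20, 12 of 22 and 8 of 10 other genes.

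Spermidine was compared with PBS in each genotype, and no member passed. In WT mTEChi 0 of 9 members were called by edgeR, where 0% of genes were called, and 1 had an unadjusted p below 0.05; DESeq2 and limma-voom also called 0 members. That gene was Bpifa2, with 7.44 and 5.26 CPM after spermidine and 1.09 and 1.46 CPM after PBS, so that the groups did not overlap, as was so for 32.8% of all genes tested (log2 fold change 2.30, SE 0.948, edgeR adjusted p = 0.999). Dcpp1, with 4.96 and 5.7 CPM after spermidine and 17.8 and 8.73 CPM after PBS, lay lower, and Dcpp2, with 3.19 and 3.07 CPM after spermidine and 0.728 and 2.43 CPM after PBS, higher, both at an edgeR adjusted p of 0.999. Single Dcpp values are uncertain, and the sum of the Dcpp genes had a log2 fold change of -0.75 (edgeR adjusted p = 0.999). Sbpl, the relative of a polyamine-binding protein, had 16.6 and 57 CPM after spermidine, against 44.8 and 34 CPM after PBS, and the groups overlapped.

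In Aire-KO mTEChi 0 of 9 members were called by edgeR after spermidine, where 0.00543% of genes, or 1 gene, were called, and 0 members had an unadjusted p below 0.05; DESeq2 and limma-voom also called 0 members there and in both comparisons that follow. The difference of the spermidine effects between Aire-KO and WT was called for 0 of 9 members, where 0% of genes were called, with 0 unadjusted p below 0.05. Averaged over both genotypes it was also 0 of 9, with 0 unadjusted p below 0.05, where 0% of genes were called. For the 5 members with 0 counts in every Aire-KO library, no effect of spermidine could be seen there at this depth. These were Smr3a, Dcpp1, Dcpp2, Dcpp3 and Sbpl. The tests of the difference and of the average could not call these 5 members either, whatever their WT values, and say nothing about them.

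With topotecan against DMSO, members lay on both sides and none passed the test. The summed level was 116 ± 14.1 CPM with topotecan and 93.7 ± 1.98 CPM with DMSO (SD, n = 2 each). By edgeR 0 of 9 members were called, where 0.652% of 18418 genes, or 120 genes, were called. An unadjusted p below 0.05 was found for 4 of the 9 members and for 13.9% of all genes tested. DESeq2 called Bpifa2 and Obp2a, limma-voom called 0, and edgeR without the filter on low counts called Bpifa2, Obp2a, Mucl2 and Sbpl. Leaving out DMSO replicate 2 gave Bpifa2 an edgeR adjusted p of 0.022, and leaving out topotecan replicate 1 gave Mucl2 one of 0.0179.

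Bpifa2 had 0.331 and 0.319 CPM with topotecan, against 15.8 and 2.8 CPM with DMSO (log2 fold change -4.68, SE 1.08, edgeR adjusted p = 0.0659). Obp2a had 6.96 and 1.91 CPM with topotecan, against 19.2 and 23.8 CPM with DMSO (log2 fold change -2.28, SE 0.611, edgeR adjusted p = 0.11). In the other direction, Sbpl had 87.8 and 40.5 CPM with topotecan, against 23.2 and 21 CPM with DMSO (log2 fold change 1.53, SE 0.479, edgeR adjusted p = 0.174). Mucl2 had 7.95 and 38.9 CPM with topotecan, against 6.31 and 5.33 CPM with DMSO (log2 fold change 2.00, SE 0.603, edgeR adjusted p = 0.149). The groups of these 4 genes did not overlap, which was so for 39.7% of all genes tested, and the distance between replicates was large on 1 side of each.

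The other tested members overlapped between topotecan and DMSO. Dcpp1 had 1.32 and 9.56 CPM with topotecan and 6.59 and 14.9 CPM with DMSO, Dcpp2 1.32 and 2.23 CPM with topotecan and 0.86 and 3.65 CPM with DMSO, and Dcpp3 3.97 and 0 CPM with topotecan and 2.58 and 2.52 CPM with DMSO. Mucl1 had 15.6 and 13.1 CPM with topotecan and 13.2 and 20.7 CPM with DMSO. The sum of the Dcpp genes had a log2 fold change of -0.75 (edgeR adjusted p = 0.58).

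Some gland genes outside the 10 did pass with topotecan. Of the 41 further gland genes tested, 2 were lower and 0 higher, beside 0.456 and 0.195% of all genes. Lpo, the lactoperoxidase of saliva and tears, had 179 ± 43.3 CPM with topotecan and 365 ± 21 CPM with DMSO (log2 fold change -1.03, SE 0.162, edgeR adjusted p = 0.0133, n = 2 each), and Klk1b8 had 5.4 ± 2.68 CPM with topotecan and 29 ± 10.9 CPM with DMSO (edgeR adjusted p = 0.0406). Of the 55 neighbours tested, 3 were lower and 0 higher: Fcna, Lcn8 and Kcnt1, all near Obp2a. Aire itself had 819 and 641 CPM with topotecan, against 1500 and 1180 CPM with DMSO (log2 fold change -0.88, SE 0.136, edgeR adjusted p = 0.0125). With the 4 libraries of that experiment fitted alone, edgeR called 1 gene higher and 0 lower, against 36 higher and 84 lower, so that none of these falls was called there. The 12 mTEC markers summed to 15742 and 16777 CPM with topotecan, against 18961 and 19765 CPM with DMSO, with most from H2-Ab1 and H2-Aa. The 6 fibroblast markers summed to 140 and 1353 CPM with topotecan, against 325 and 712 CPM with DMSO. The part of these shifts in the members' values was not tested.

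**Figure D4:**
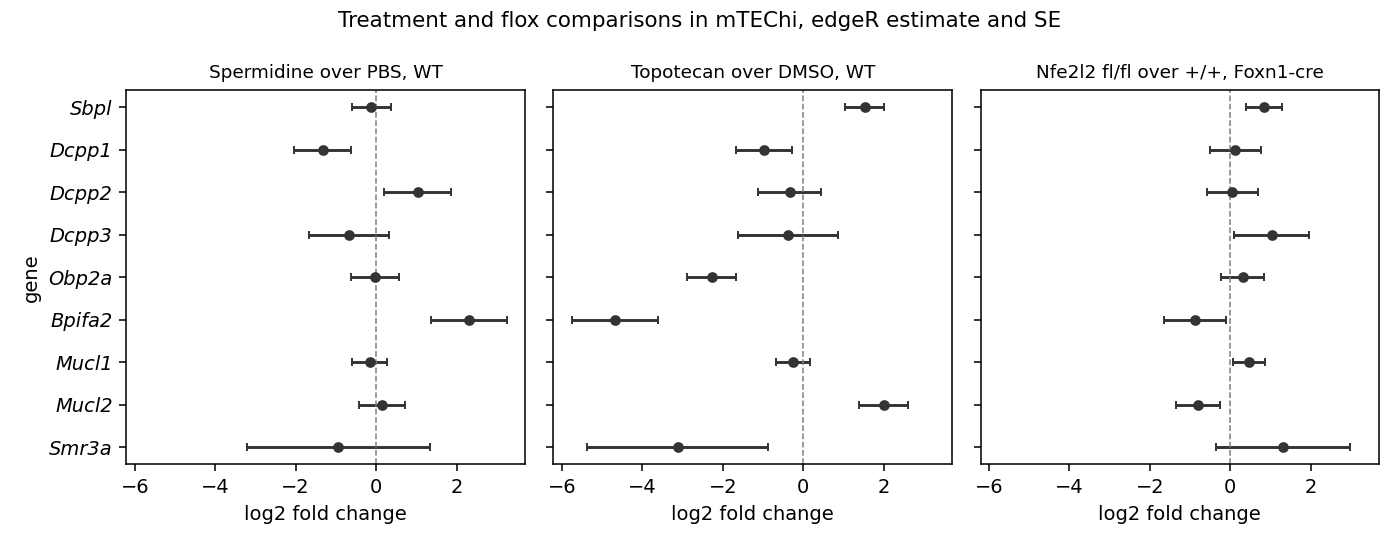
Log2 fold change of 9 members (Smr2 failed the filter) for spermidine over PBS in WT, topotecan over DMSO in WT and Nfe2l2 fl/fl over +/+, with bars for the SE of the edgeR fit. With topotecan, Bpifa2 at -4.68 and Obp2a at -2.28 lie below 0 and Mucl2 at 2.00 and Sbpl at 1.53 above it; none of the points passed an adjusted p of 0.05.

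Nfe2l2 fl/fl with Foxn1-cre was compared with Nfe2l2+/+ with Foxn1-cre, and no member passed. The summed level was 248 ± 40.3 CPM in Nfe2l2 fl/fl and 188 ± 21.2 CPM in Nfe2l2+/+ (SD, n = 2 each). By edgeR 0 of 9 members were called, where 0% of genes were called, 0 members had an unadjusted p below 0.05, and DESeq2 and limma-voom also called 0 members. Sbpl had the smallest unadjusted p of the 9, 0.0877, with 105 and 89.3 CPM in Nfe2l2 fl/fl, against 43.8 and 65.6 CPM in Nfe2l2+/+ (log2 fold change 0.83, SE 0.447, edgeR adjusted p = 0.999). Bpifa2 had 4.98 and 4.77 CPM in Nfe2l2 fl/fl, against 9.35 and 8.61 CPM in Nfe2l2+/+ (log2 fold change -0.88, SE 0.777, edgeR adjusted p = 1). Mucl2 had 18 and 15 CPM in Nfe2l2 fl/fl, against 37 and 20.7 CPM in Nfe2l2+/+, also apart (edgeR adjusted p = 1). Of all genes tested, 33.9% had groups without overlap here, and 3 of the 9 members. Dcpp1, Dcpp2, Dcpp3, Obp2a, Mucl1 and Smr3a overlapped between the groups, as did Smr2, which failed the filter. The sum of the Dcpp genes had a log2 fold change of 0.47 (unadjusted p = 0.332 by edgeR).

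Levels in Aire-sufficient mTEChi were also set side by side across experiments, with no test. Dcpp2 had 10.2 to 15.5 CPM in the 4 Foxn1-cre libraries and 0.728 to 3.65 CPM in the 8 WT libraries of the spermidine and topotecan experiments, with no overlap. Dcpp1 had 17.6 to 23.7 CPM in the Foxn1-cre libraries and 1.32 to 17.8 CPM in those 8, with a narrow overlap. The sum of the Dcpp genes overlapped too, with 39.5 to 87 CPM in the Foxn1-cre libraries and 6.62 to 44.8 CPM in those 8. Reads can be given to the wrong copy, so the separation of Dcpp2 alone is uncertain. The share of all genes that separate in this way was not counted. Line, injection and experiment cannot be told apart here. Sbpl ranged from 16.6 to 105 CPM, Dcpp3 from 0 to 51 CPM and Bpifa2 from 0.319 to 15.8 CPM over the 12 Aire-sufficient libraries. Replicates of 1 group could also lie far apart. Sbpl had 16.6 and 57 CPM in WT with spermidine, and Dcpp3 had 51 and 13.3 CPM in Nfe2l2 fl/fl. Bpifa2 had 15.8 and 2.8 CPM in WT with DMSO.

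Over all 16 mTEChi libraries, 13062 genes were set beside Sbpl by the correlation of log2(CPM + 1). The 5 most alike were Lefty2 (r = 0.981), Ush1c (0.959), Pgm2 (0.957), Fxyd3 (0.947) and Ly6d (0.942). Much of this likeness is the difference between the 4 Aire-KO libraries, all at 0 for Sbpl, and the rest. Within the 12 Aire-sufficient libraries alone, r was 0.917 for Lefty2, a secreted inhibitor of Nodal signalling, and 0.722 for Pgm2, 0.617 for Ush1c, 0.561 for Ly6d and 0.239 for Fxyd3. Lefty2 had 10.1 to 128 CPM in the 12 Aire-sufficient libraries and at most 0.434 CPM in the Aire-KO libraries. These values are descriptions over libraries that share groups and experiments.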

How the data were processed

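The sources are RNA-seq libraries of 1000 sorted cells, made with an oligo(dT) protocol without molecular identifiers or strand information per the labels' protocols. For mTEChi the authors deposited raw gene counts, and for Aire-GFP+ cells estimated counts and TPM per transcript; the submitters' processing notes name STAR, featureCounts, kallisto, TopHat2 2.1.1 and SAMtools 1.3.1 without tying each to a file. Here the estimated counts and TPM of 116816 of 118489 transcripts were summed to 35999 gene symbols with GENCODE M21, and estimated counts were rounded. The unmatched transcripts held 0.541 to 0.578% of counts.

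The 5 Aire-GFP+ libraries and the 16 mTEChi libraries were fitted apart with edgeR 4.0.16 (R 4.3.3) using TMM scaling, the filterByExpr filter and the quasi-likelihood test, with 1 mean per group and Benjamini-Hochberg adjustment over all genes tested. Alternatives were DESeq2 1.42.0, limma-voom (limma 3.58.1), other scalings, no filter, the replicate number as a block, each experiment alone, summed Dcpp genes, a length offset and leaving out each library. CPM use TMM library sizes; RPKM use exonic lengths. A gene without counts in a group was bounded with a floor of 3 counts over that group, which covers counting error only. The fit was tested on simulated data. Promoter windows came from RefSeq, where 9 of 10 genes matched.

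The 10 genes, the gene lists and the tests were chosen with earlier results of these data known. All 10 genes are named. From each list, up to 5 genes per direction with the smallest adjusted p and a mean of at least 1 CPM could be named, beside Aire and Nfe2l2 and the 5 genes most like Sbpl.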

Additional observations from a re-analysis of the deposited data

How the results depend on the processing

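For the comparisons of Aire-KO with WT, no alternative turned the direction of a member (0 of 99, 103, 102 and 139 values in Aire-GFP+ cells, with PBS, with spermidine and over both). Members called moved by over 1.5 times under limma-voom, to 1 with PBS (6 by edgeR) and 0 with spermidine (6 by edgeR), and when 1 library was left out with spermidine, to between 3 and 4. With topotecan they were 4 without the filter on low counts, 2 by DESeq2 and 0 to 1 with 1 library left out, against 0. Bpifa2 in Aire-GFP+ cells had an adjusted p of 0.27 by limma-voom. Library totals in place of TMM moved the median of all genes to -0.51 in Aire-GFP+ cells and -0.24 with PBS, against -0.12 and -0.05, and gave 1591 genes higher and 6250 lower in Aire-GFP+ cells, against 3410 and 4000, and 581 higher and 1387 lower with PBS, against 960 and 936. With the replicate number as a block, members called were 8, 6, 7 and 7 in the Aire comparisons and 0 with topotecan. The numbers are not stated to mark pairs. The difference of replicate 1 from replicate 2 in 1 group correlated with that in another group of the same experiment at -0.0234 to 0.14. The block gave Dcpp2 -0.01 for Nfe2l2 and limma-voom gave Obp2a 0.11 for spermidine in WT, both with turned sign on the log2 scale. With 1 library left out, log2 values that crossed 0 ranged as follows. For spermidine in WT they were -0.20 to 0.65 for Mucl2, -4.47 to 0.10 for Smr3a, -0.45 to 0.55 for Obp2a, -1.37 to 0.79 for Dcpp3 and -1.25 to 0.52 for Sbpl. For topotecan they were -0.54 to 0.08 for Mucl1, -5.49 to 2.35 for Smr3a, -1.03 to 0.98 for Dcpp2 and -6.05 to 0.63 for Dcpp3. For Nfe2l2 they were -0.22 to 0.94 for Mucl1, -1.86 to 5.97 for Smr3a, -0.34 to 0.76 for Obp2a, -0.04 to 0.32 for Dcpp1, -0.22 to 0.38 for Dcpp2 and -0.23 to 2.24 for Dcpp3. Genes called with topotecan numbered 120, against 1006 without the filter, 415 by DESeq2, 60 by limma-voom and 1 with that experiment fitted alone; for Aire-KO with PBS they numbered 1896, against 1068 by limma-voom, and with spermidine 1678, against 836. Without the filter 111 genes were called for spermidine in WT and 134 for Nfe2l2, and DESeq2 called 26 for Nfe2l2, all against 0. The cause was not tested. A left-out library leaves 1 in its group, which is then assumed to vary like the others. Smr2 and Smr3a lay near 1 CPM or lower in most libraries, so depth limits what can be said of them.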
